A study of Mus musculus with 16 samples.

Results

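Imprinted genes were followed through a pulse of RAF to ERK signalling in mouse embryonic stem cells. The set was 39 genes known to be imprinted in the mouse, Peg10 among them, chosen by name and found by Ensembl identifier among the 52636 rows of the count table. All 39 had a row, 28 of them passed the filter on low counts and were tested with 12215 genes in all, and 11 did not pass. The cells were CRAFR26, an embryonic stem cell line that carries a tamoxifen-inducible c-RAF construct, in the form of clone 4 and clone 8, each of them 1 targeted line. All cultures had CHIR99021 (3 µM, a GSK3 inhibitor) and LIF in N2B27 medium, and for the last 48 h the FGF receptor inhibitor PD173074 (250 nM) had replaced the MEK inhibitor PD0325901. The 0h group received nothing further. The 2h and 4h groups received 250 nM 4-hydroxytamoxifen (4OHT) for 2 h or 4 h. The rev group received 250 nM 4OHT for 4 h and then a MEK inhibitor for 2 h more. Each group held 4 libraries, 2 from each clone. No culture had the vehicle of 4OHT alone, and none was kept as long as rev without the MEK inhibitor, so the inhibitor and the added time cannot be told apart. The labels name replicates within a clone and do not say how they were made, so the p-values measure the spread between these libraries, which may be partly technical.

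An imprinted gene is transcribed mainly from the copy inherited from a single parent. The parental copies differ in DNA methylation at control regions, laid down in the germ line and kept through early development by factors such as ZFP57 and TRIM28. Many imprinted genes act on fetal growth, the placenta, metabolism or the brain, and they lie in clusters in which a long noncoding RNA often comes from the opposite parental copy to the coding genes. The counts used here carry no allele information, so a level below is the sum over both copies.

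The libraries held 2172651 to 12680303 counts (median 6502783), of which 1532 to 10227 fell on the 39 imprinted genes. The 8 most abundant gene models took 42.0% to 80.4% of the counts. The highest share was in clone 8 replicate 2 of rev, which also had the lowest TMM factor (0.463 of 0.463 to 1.47) and stands apart, so calls of the imprinted genes in rev over both clones are given with and without it. Levels are CPM, the share of a library's counts on a fixed scale, with TMM-scaled library sizes. A count of 3, taken as the floor, was worth 0.213 to 1.35 CPM. The 7 embryonic stem cell markers (Pou5f1, Sox2, Nanog, Zfp42, Esrrb, Tfcp2l1 and Klf4) summed to 1511 to 2202 CPM per library, against 3.26 to 6.76 CPM for 4 primitive endoderm markers and 1.87 to 7.66 CPM for 4 fibroblast markers. The ERK response genes Spry4, Dusp6 and Egr1 rose at 4h against 0h, with log2 fold changes of 7.88, 5.40 and 3.35 (adjusted p = 4.61e-29, 8.11e-23 and 1.87e-18, edgeR).

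Promoters are shown for 4 genes on which the results below turn: Mest and Phlda2, which rose, Peg3, which fell, and Meg3, which differed between the clones. Each is a RefSeq window of 300 bases on GRCm38.p6, 250 before the start of transcription and 50 after it, written 5′ to 3′ on the gene's strand. Capitals mark the core TGCCGC, which the imprint-protecting zinc finger protein ZFP57 binds when methylated, or its reverse complement. The windows are chr6:30737800-30738099 (+) for Mest, chr7:143502475-143502774 (−) for Phlda2, chr7:6730370-6730669 (−) for Peg3 and chr12:109540746-109541045 (+) for Meg3.
Mest: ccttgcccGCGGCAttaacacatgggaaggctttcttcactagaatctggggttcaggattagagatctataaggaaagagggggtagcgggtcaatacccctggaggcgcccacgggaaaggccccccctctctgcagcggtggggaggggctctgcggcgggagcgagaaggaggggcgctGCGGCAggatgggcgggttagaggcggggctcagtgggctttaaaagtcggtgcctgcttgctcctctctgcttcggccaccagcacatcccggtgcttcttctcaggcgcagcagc
Phlda2: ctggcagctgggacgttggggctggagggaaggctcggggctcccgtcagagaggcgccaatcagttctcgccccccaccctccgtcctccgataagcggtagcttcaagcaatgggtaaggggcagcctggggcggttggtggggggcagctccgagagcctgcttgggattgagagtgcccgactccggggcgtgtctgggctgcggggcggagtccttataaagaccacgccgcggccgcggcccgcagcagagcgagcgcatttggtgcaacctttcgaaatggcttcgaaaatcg
Peg3: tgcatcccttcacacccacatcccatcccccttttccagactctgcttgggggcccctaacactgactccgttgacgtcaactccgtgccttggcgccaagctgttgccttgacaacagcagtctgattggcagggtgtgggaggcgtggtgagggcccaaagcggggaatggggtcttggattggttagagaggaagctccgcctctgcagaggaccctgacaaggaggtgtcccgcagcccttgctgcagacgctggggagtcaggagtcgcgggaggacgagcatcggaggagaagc
Meg3: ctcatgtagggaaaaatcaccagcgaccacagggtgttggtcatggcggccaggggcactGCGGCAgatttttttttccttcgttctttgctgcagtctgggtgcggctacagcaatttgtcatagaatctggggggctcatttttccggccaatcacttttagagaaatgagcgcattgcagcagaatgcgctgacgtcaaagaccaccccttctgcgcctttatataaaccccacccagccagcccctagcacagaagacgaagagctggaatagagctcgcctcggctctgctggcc
The Mest window held 2 such cores and the Meg3 window 1, and these letters were not in the Phlda2 and Peg3 windows. The windows of Peg3 and of Usp29, transcribed away from it, shared 263 bases. Windows were given for 32 of the 39 genes, 48 in all, and not for Rtl1, Cdkn1c, Sgce, Peg10, Kcnq1, Impact and H19. The TGCCGC core was in 11 of the 48 windows (22.9%) and in 11.6% of all 32851 windows of this length. The EGR1 motif GTGGGCG was in 6 (12.5%, against 7.97% of all), 1 of them the Mest window shown. The AP-1 motif TGANTCA was in 2 (4.17%, against 7.81%) and the ETS motif CGGAAGT in 2 (4.17%, against 6.42%). Both strands were searched, and windows of the same gene can overlap. The median number of CG dinucleotides was 13.5 in these windows and 7 in all.

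Before induction the imprinted genes covered a wide range of levels. Per kilobase of exon, the highest mean at 0h was that of Slc38a4, an amino acid transporter, at 25.1 CPM per kb (lowest to highest library 24.8 to 25.5). The tetraspanin gene Cd81 followed at 21.5 CPM per kb, and its range (20.6 to 22.4) did not meet that of Slc38a4. The zinc finger transcription factor gene Plagl1 (14.3 CPM per kb), Impact, whose product restrains the kinase GCN2 (12.1), and Igf2r, the receptor that carries IGF2 to lysosomes (11.9), came next, with ranges that overlapped one another. Peg10, a retrotransposon-derived gene that the placenta needs, stood at 1.58 CPM per kb (1.19 to 2.07), and neighbours in the order, from Rian at 1.69 to Meg3 at 1.41, had ranges that overlapped with it. Igf2, the fetal growth factor, was at 0.256 CPM per kb, and Usp29 was the lowest tested gene at 0.0975.

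**Figure D1:**
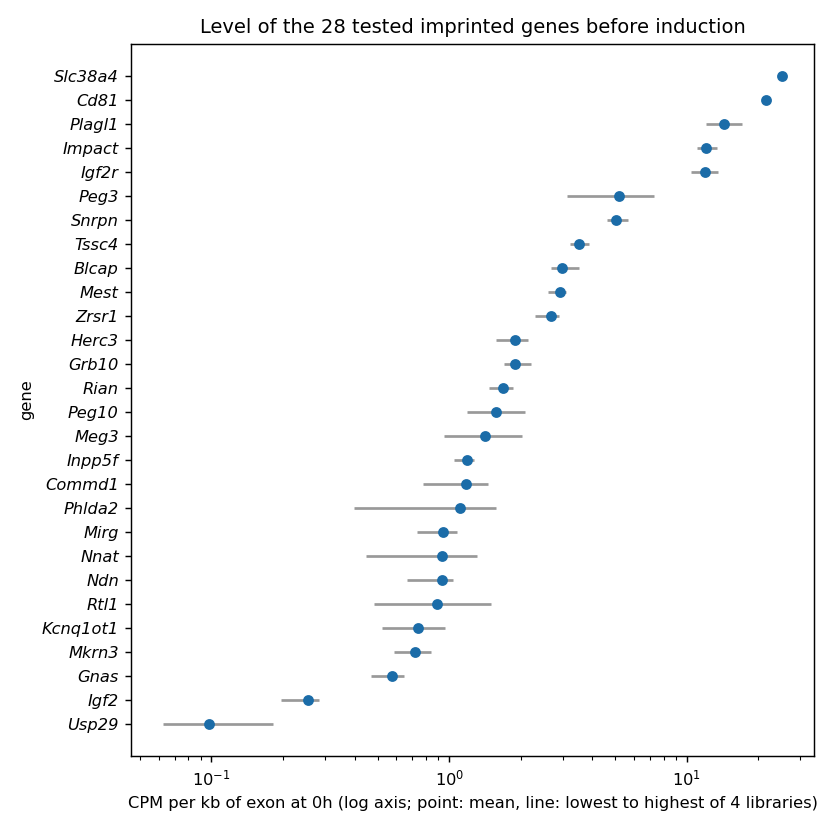
Level of each tested imprinted gene at 0h, in CPM per kb of exon on a log axis. Points are means of 4 libraries and lines run from the lowest to the highest library, with Slc38a4 at 25.1 at the top and Usp29 at 0.0975 at the bottom.

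Imprinted genes were called in both directions in each time comparison. A gene is called higher or lower where edgeR's quasi-likelihood test gave an adjusted p under 0.05 over all 12215 tested genes. At 2h against 0h, 4 of the 28 tested imprinted genes were called higher and 6 lower, while 21.1% of all tested genes were called (11.4% higher and 9.68% lower). That is 35.7% of the 28 genes. At 4h against 0h, 3 were higher and 2 lower, against 33.9% of all genes called (17.2% higher and 16.8% lower). From 2h to 4h, 4 rose and 1 fell, against 7.32% of all genes (3.8% higher and 3.52% lower). The 5 genes called in each of these are 17.9% of the 28, below the share of all genes at 4h against 0h and above it from 2h to 4h. The median log2 fold change of the 28 genes was -0.02 at 2h against 0h and -0.03 at 4h against 0h, beside -0.02 and -0.02 over all tested genes. By parental copy, 4 of 8 tested genes usually expressed from the maternal copy were called at 2h against 0h and 1 of 8 at 4h against 0h, and of those from the paternal copy 6 of 16 and 4 of 16. With library size as the only scaling, the calls among all genes numbered 204 higher and 134 lower at 2h against 0h, 554 and 327 at 4h against 0h, and 88 and 12 from 2h to 4h, and the imprinted genes called were 1, 3 and 1, each of them higher. In all, 13 of the 28 genes were called in at least 1 of the 5 time comparisons, and 11 were called neither in these nor between the clones. The matching shares of all tested genes were not counted, so these numbers have no background beside them.

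**Figure D2:**
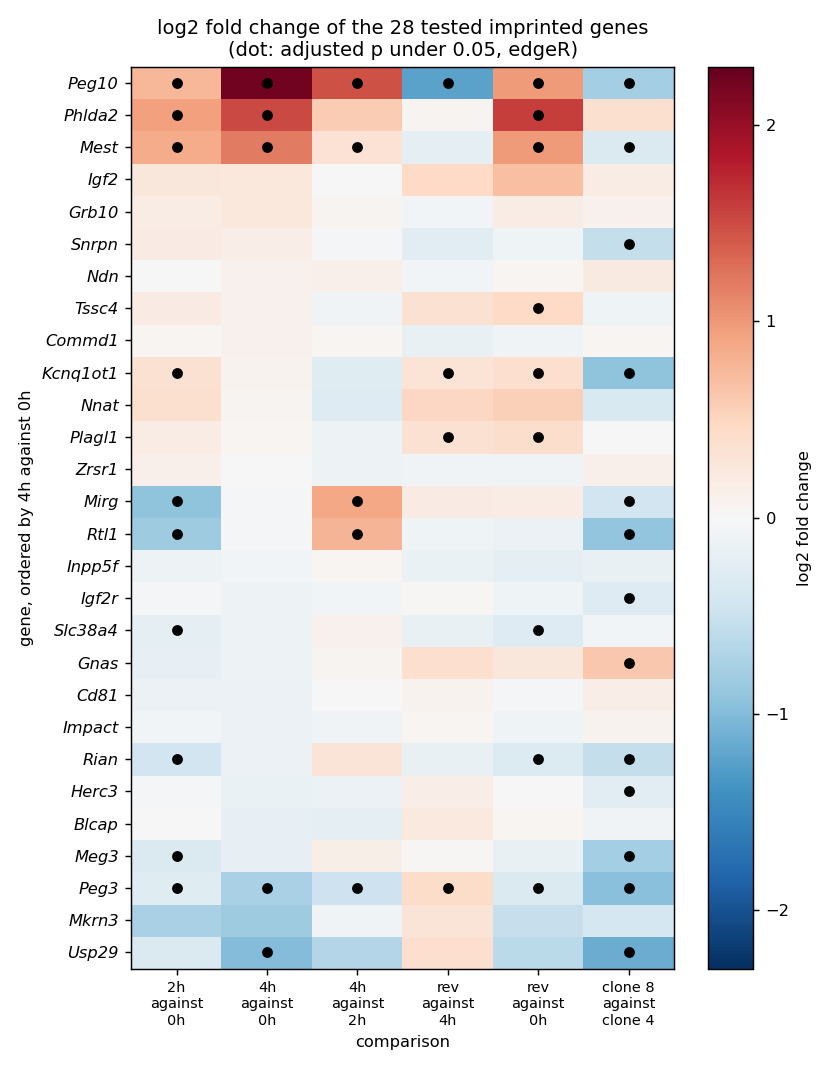
Log2 fold change of the 28 tested imprinted genes (rows, ordered by the change at 4h against 0h) in 6 comparisons (columns), with a dot where edgeR's adjusted p is under 0.05. Peg10, Phlda2 and Mest are at the top with 2.22, 1.53 and 1.19 at 4h, and most calls in the clone column are lower in clone 8.

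Peg10 had the largest rise of the 28 tested genes at 4h against 0h, and at 2h the rises of Phlda2 and Mest were larger. It lies at chr6:4747306-4760517 (+) beside Sgce, which encodes epsilon-sarcoglycan and reached at most 11 counts in any library. At 0h Peg10 was at 11.1 and 7.91 CPM in the clone 4 libraries and 13.8 and 9.19 CPM in the clone 8 libraries. At 2h these were 20.2 and 18.8 CPM in clone 4 and 15.6 and 15.0 CPM in clone 8. All 2h libraries were above all 0h libraries, and both clone 4 libraries of 2h were above both of clone 8. At 4h Peg10 reached 76.2 and 81.2 CPM in clone 4 and 23.7 and 25.8 CPM in clone 8. All 4h libraries were above all 2h libraries, and the clone 4 libraries stood far above those of clone 8. The group means rose from 10.5 ± 2.58 CPM (SD, n = 4) at 0h to 17.4 ± 2.51 CPM at 2h and 51.7 ± 31.2 CPM at 4h.

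Over both clones Peg10 was 1.69-fold higher at 2h than at 0h (log2 0.76, SE 0.23, adjusted p = 0.0149) and 4.65-fold higher at 4h than at 0h (log2 2.22, SE 0.20, adjusted p = 1.54e-10). The 4h change was the 78th highest of the 12215 tested genes, and the further rise from 2h to 4h (log2 1.46, SE 0.18, adjusted p = 9.9e-07) was the 30th. The 4h call held under each alternative and without each library (log2 1.90 to 2.499). The 2h call was lost with DESeq2 (log2 0.68, adjusted p = 0.157), without clone 4 replicate 2 of 0h (0.48, adjusted p = 0.136) and without clone 8 replicate 1 of 2h (0.67, adjusted p = 0.0589). It was also lost with library size as the only scaling (0.65, adjusted p = 0.17) and without clone as a covariate (0.72, adjusted p = 0.239). Markers of several cell types changed at 4h as well. All 7 embryonic stem cell markers were called at 4h against 0h, with Nanog (log2 -0.68), Klf4 (-0.35) and Tfcp2l1 (-0.31) lower and Zfp42 (0.40), Sox2 (0.38), Pou5f1 (0.26) and Esrrb (0.23) higher. The 3 mesoderm markers summed to 4.70 to 7.06 CPM at 0h, 6.89 to 14.5 CPM at 2h, 13.2 to 22.3 CPM at 4h and 6.63 to 8.91 CPM in rev. Of them T and Eomes were called higher at 4h against 0h (log2 2.54 and 0.98) and Mesp1 had at most 2 counts in any library. Of 4 trophoblast markers, which summed to 23.5 to 49.7 CPM per library, Cdx2 was called higher at 4h (log2 1.95) and Tfap2c lower (-0.73), while Hand1 had at most 5 counts. Their part in the Peg10 result was not tested. In these bulk libraries a change in the number of cells that express a gene and a change in RNA per cell cannot be told apart.

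Mest and Phlda2 rose with Peg10. Mest encodes a protein of the alpha/beta-hydrolase family and lies at chr6:30723547-30748465 (+). Its 0h libraries were at 12.2 and 12.2 CPM in clone 4 and 10.3 and 11.3 CPM in clone 8. At 2h it was at 23.8 and 22.8 CPM in clone 4 and 20.02 and 17.5 CPM in clone 8, and at 4h at 31.5 and 30.8 CPM in clone 4 and 22.6 and 21.0 CPM in clone 8. Every 2h and 4h library was above every 0h library, and the spread within a clone was small. Mest was 1.81-fold higher at 2h (log2 0.85, SE 0.10, adjusted p = 1.08e-07) and 2.28-fold higher at 4h (log2 1.19, SE 0.10, adjusted p = 2.95e-11) than at 0h, and both calls held under each alternative and without each library. The smaller rise from 2h to 4h (log2 0.34, adjusted p = 0.0186) lost its call without any of 4 libraries, namely clone 4 replicate 1 (0.34) or clone 8 replicate 2 (0.30) of 2h and clone 4 replicate 1 (0.31) or 2 (0.32) of 4h. That call was also lost with library size as the only scaling (0.45) and without clone as a covariate (0.38). Copg2, on the opposite strand, shares 23.1% of the exon bases of Mest, and with the strand setting of the counting not given its reads cannot be told apart from those of Mest there. Copg2 had 64 to 374 counts per library and a log2 fold change of -0.13 at 4h against 0h (adjusted p = 0.342).

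Phlda2, a pleckstrin-homology domain gene that limits placental growth, lies at chr7:143501545-143503150 (−) in the Kcnq1 domain. It was at 1.36, 0.448, 1.77 and 1.39 CPM in the 0h libraries (clone 4 replicates 1 and 2, then clone 8 replicates 1 and 2). At 2h the same order gave 1.81, 2.63, 2.70 and 2.56 CPM, and at 4h 3.41, 3.15, 4.56 and 2.10 CPM. No 2h or 4h library was as low as the highest 0h library, although these levels rest on 3 to 36 counts. Phlda2 was 1.92-fold higher at 2h (log2 0.94, SE 0.30, adjusted p = 0.023) and 2.88-fold higher at 4h (log2 1.53, SE 0.30, adjusted p = 0.000139). The 4h call held under each alternative and without each library. The 2h call was lost without clone 4 replicate 2 of 0h (0.72), clone 8 replicate 2 of 0h (0.96) or clone 8 replicate 1 of 2h (0.92). It was also lost with library size as the only scaling (0.95, adjusted p = 0.214) and without clone as a covariate (0.97, adjusted p = 0.0668).

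**Figure D3:**
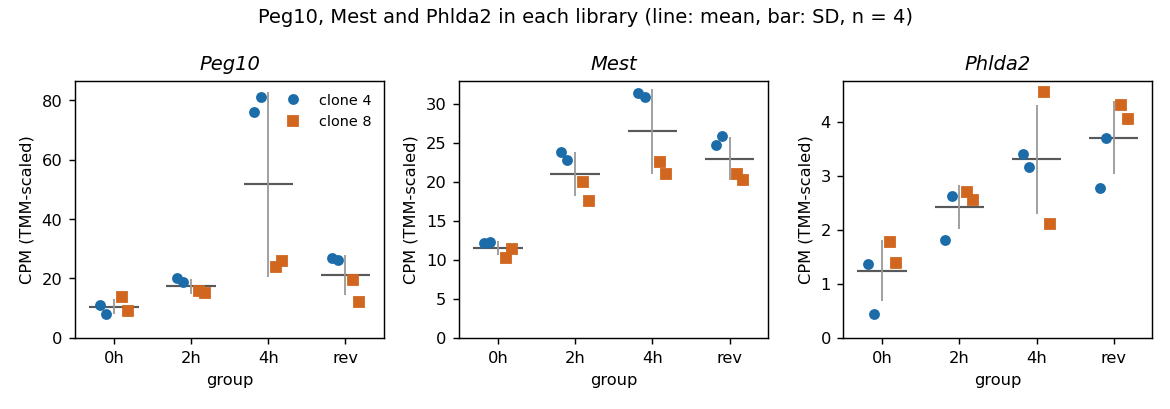
CPM of Peg10, Mest and Phlda2 in each of the 16 libraries by group, with clone 4 as circles and clone 8 as squares; horizontal lines are means and vertical bars SD (n = 4). All 2h and 4h libraries lie above all 0h libraries for each gene, and the 4h libraries of clone 4 stand at 76.2 and 81.2 CPM for Peg10.

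In the Peg3 domain, Peg3 was called lower at 2h and 4h against 0h, and Usp29 at 4h. Peg3 encodes a zinc finger protein and Usp29 a ubiquitin-specific peptidase, and they start close together on opposite strands, at chr7:6703892-6730431 (−) and chr7:6730578-6967219 (+). Peg3 was at 96.7 and 95.3 CPM in clone 4 and 41.8 and 43.2 CPM in clone 8 at 0h. At 2h it was at 74.2 and 60.4 CPM in clone 4 and 43.8 and 37.0 CPM in clone 8, and at 4h at 52.2 and 58.2 CPM in clone 4 and 27.3 and 23.2 CPM in clone 8. The groups overlapped because the clones differed, and within each clone both 4h libraries were below both 0h libraries. Peg3 was 1.69-fold lower at 4h than at 0h (log2 -0.75, SE 0.09, adjusted p = 6.95e-08), with -0.80 within clone 4 (adjusted p = 4.4e-07) and -0.74 within clone 8 (adjusted p = 8.15e-05). The call over both clones was lost with library size as the only scaling (-0.64, adjusted p = 0.0777) and without clone as a covariate (-0.72, adjusted p = 0.117). Its fall at 2h (log2 -0.27, adjusted p = 0.0224) was not called without any of 5 libraries, which were both clone 4 libraries of 0h (-0.24 each), clone 4 replicates 1 (-0.28) and 2 (-0.21) of 2h, and clone 8 replicate 2 of 2h (-0.26). Nor was that fall called with library size as the only scaling (-0.28) or without clone as a covariate (-0.37). Usp29 was low, at 1.36, 3.28, 1.13 and 1.28 CPM in the 0h libraries and 1.54, 0.818, 1.14 and 0.263 CPM in the 4h libraries, in the order of clone and replicate used above. It was at 2.07, 2.63, 1.01 and 0.781 CPM at 2h. These rest on 1 to 22 counts, and the groups overlapped. Usp29 was called lower at 4h (log2 -1.005, SE 0.36, adjusted p = 0.0278), but not with DESeq2 (-0.97, adjusted p = 0.0791), with each library's share of the top 8 models in the fit (-1.03, adjusted p = 0.0843), with library size as the only scaling (-0.75, adjusted p = 0.346) or without clone as a covariate (-0.78, adjusted p = 0.276). It was also not called without clone 4 replicate 2 (-0.72) or clone 8 replicate 2 (-0.96) of 0h, or clone 4 replicate 2 (-0.71) or clone 8 replicate 2 (-0.91) of 4h. Zim1, the zinc finger gene next to them, had at most 3 counts.

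The 4 tested genes of the set in the Dlk1 and Meg3 domain on chromosome 12 were lower at 2h. Dio3, of that domain but outside the set, was not called at 2h against 0h (log2 0.12, adjusted p = 0.587). The domain holds 3 long noncoding RNAs of the maternal copy (Meg3, the snoRNA host Rian and the microRNA host Mirg) and, on the paternal copy, Dlk1 and the retrotransposon-derived Rtl1. Over both clones all 4 tested genes were called lower at 2h against 0h, 2 of them higher again from 2h to 4h, and none was called at 4h against 0h, where log2 fold changes were between -0.19 and -0.02. Within clone 8 all 4 were called lower at 2h (log2 -1.003 to -0.45, beside 17.6% of all genes called), and Rian was called lower at 4h too (log2 -0.39, adjusted p = 0.0465). Within clone 4 none was called at 2h (log2 -0.88 to -0.20, beside 7.29% of all genes called). The difference between the clones in the 2h response was not called for these genes (-0.39 to -0.07, smallest adjusted p = 0.624). Mirg (chr12:109729764-109749460, +) was at 7.88, 7.76, 6.43 and 5.35 CPM in the 0h libraries, 3.75, 5.69, 2.70 and 3.27 CPM at 2h and 6.71, 8.53, 6.08 and 5.53 CPM at 4h. Within each clone both 2h libraries were below both 0h and both 4h libraries. It was 1.89-fold lower at 2h (log2 -0.92, SE 0.18, adjusted p = 0.000218) and 1.86-fold higher at 4h than at 2h (log2 0.90, SE 0.18, adjusted p = 0.00093). Both calls were lost with library size as the only scaling (-0.88, adjusted p = 0.0688, and 0.97, adjusted p = 0.0749). Rtl1 (chr12:109589193-109600330, −) was at 9.51, 5.52, 3.06 and 4.49 CPM at 0h, 4.53, 4.82, 2.196 and 1.70 CPM at 2h and 6.05, 7.71, 4.75 and 2.63 CPM at 4h. Its groups overlapped, with log2 -0.82 at 2h (SE 0.23, adjusted p = 0.00893) and 0.78 from 2h to 4h (SE 0.23, adjusted p = 0.033). The second of these was lost without clone 4 replicate 1 (0.89), clone 8 replicate 1 (0.79) or clone 8 replicate 2 (0.66) of 2h, or clone 4 replicate 2 (0.69) or clone 8 replicate 1 (0.67) of 4h, and the first without clone 8 replicate 2 of 0h (-0.70). Both were also lost with library size as the only scaling and without clone as a covariate. MicroRNA genes such as Mir127 and Mir433 lie within Rtl1 on the opposite strand. With the strand setting of the counting not given, reads of that strand cannot be told apart from those of Rtl1.

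Rian (chr12:109603940-109661716, +) was at 33.7, 33.0, 29.6 and 26.8 CPM at 0h, 26.8, 28.5, 19.2 and 18.5 CPM at 2h and 32.4, 38.0, 21.6 and 21.0 CPM at 4h. It was 1.35-fold lower at 2h (log2 -0.44, SE 0.10, adjusted p = 0.00232), a call that held without each library. It was lost with library size as the only scaling (-0.45, adjusted p = 0.474) and without clone as a covariate (-0.45, adjusted p = 0.218). Meg3 (chr12:109541001-109571726, +) was at 36.7, 26.1, 17.2 and 22.0 CPM at 0h, 28.1, 22.8, 15.97 and 13.2 CPM at 2h and 25.1, 33.2, 16.3 and 14.2 CPM at 4h. Its groups overlapped widely. Its change at 2h (log2 -0.34, SE 0.12, adjusted p = 0.0415) was not called with DESeq2 (adjusted p = 0.0708), nor without clone 4 replicate 1 (-0.28) or clone 8 replicate 2 (-0.22) of 0h, nor without clone 4 replicate 2 (-0.31), clone 8 replicate 1 (-0.38) or clone 8 replicate 2 (-0.27) of 2h. The call was also lost with library size as the only scaling, without clone as a covariate and with the compared groups alone. Dlk1, which encodes a transmembrane protein related to Notch ligands, had at most 11 counts.

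In the Kcnq1 domain of chromosome 7, Kcnq1ot1, the long noncoding RNA whose transcription silences neighbouring genes in cis, was called higher at 2h against 0h and was not called at 4h against 0h. It was at 89.6, 87.1, 48.7 and 49.1 CPM at 0h, 131, 104, 64.8 and 53.5 CPM at 2h and 99.4, 95.3, 51.6 and 44.5 CPM at 4h. Within each clone both 2h libraries were above both 0h libraries (log2 0.36, SE 0.09, adjusted p = 0.00539 over both clones). That call was lost without clone 4 replicate 1 of 2h (0.27, adjusted p = 0.0571). It was also lost with library size as the only scaling (0.33, adjusted p = 0.717) and without clone as a covariate (0.36, adjusted p = 0.545). At 4h against 0h the log2 fold change was 0.07 (adjusted p = 0.593). From 2h to 4h Kcnq1ot1 was not called, though some alternatives called it lower, such as the replicate block (-0.28, adjusted p = 0.0358). Tssc4, a splicing-related gene of the same domain, and Cd81 were not called at 2h or 4h against 0h over both clones. Within clone 4, Cd81 was called lower at 4h (log2 -0.37, adjusted p = 0.00872), from 62.2 and 64.6 CPM to 49.2 and 49.1 CPM. Cdkn1c (a cyclin-dependent kinase inhibitor), Ascl2 (a transcription factor of trophoblast), Slc22a18 (a transporter) and Kcnq1 (a potassium channel) did not pass the filter.

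**Figure D4:**
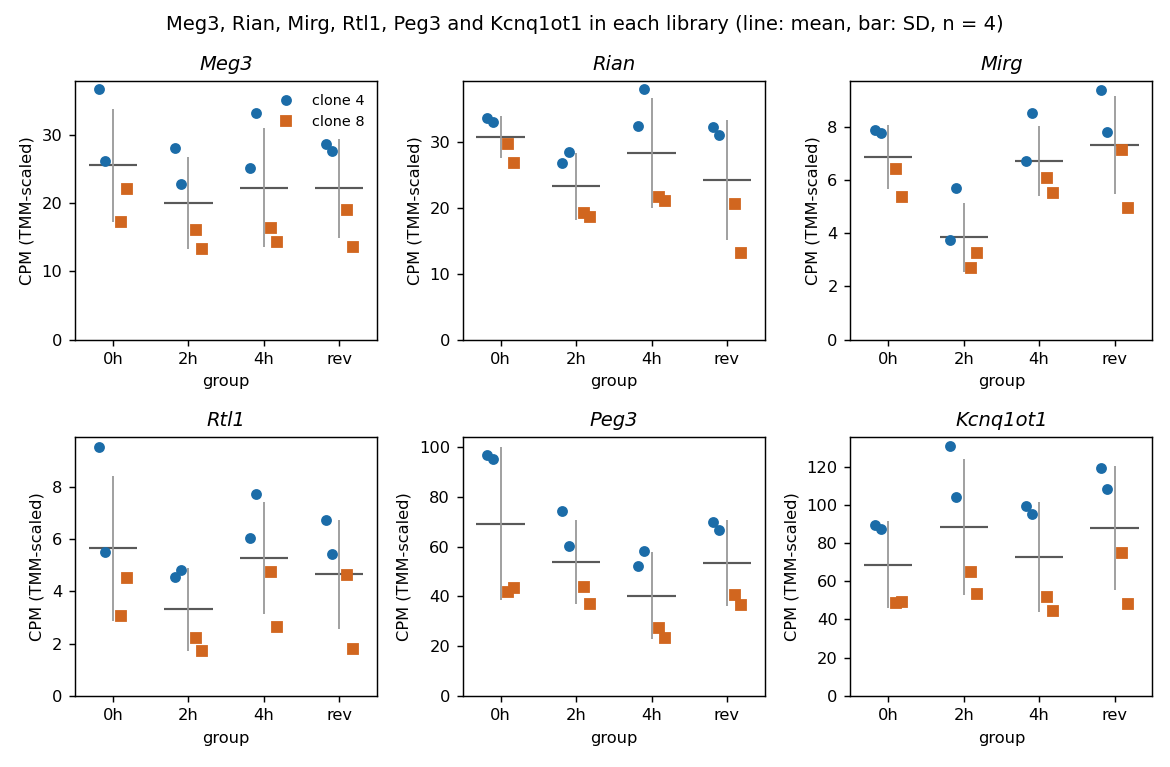
CPM of Meg3, Rian, Mirg, Rtl1, Peg3 and Kcnq1ot1 in each of the 16 libraries by group, with clone 4 as circles and clone 8 as squares; lines are means and bars SD (n = 4). Mirg falls to 2.70 to 5.69 CPM at 2h and is back at 5.53 to 8.53 CPM at 4h, while Peg3 is lowest at 4h in each clone, and Meg3, Peg3 and Kcnq1ot1 are higher in clone 4 in every group.

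Igf2, Igf2r, Grb10 and Plagl1 were not called over both clones at 2h or 4h against 0h. Igf2 was at 0.876 to 2.82 CPM over all 16 libraries, and its largest fitted value was 0.70 for rev against 0h (SE 0.30, adjusted p = 0.0884). Igf2r ran from 89.8 to 126 CPM, and Grb10, an adaptor that restrains insulin and IGF receptors, from 14.5 to 23.2 CPM. Plagl1 (chr10:13060504-13131694, +) was at 134, 113, 105 and 94.3 CPM at 0h, 104, 111, 130.4 and 144 CPM at 2h and 106, 117, 117 and 119.7 CPM at 4h, with log2 0.16 at 2h and 0.05 at 4h. At 2h its clones went apart: both clone 8 libraries were above their 0h libraries (log2 0.47, adjusted p = 0.00156 within clone 8, where 17.6% of all genes were called) and both clone 4 libraries below theirs (log2 -0.19). The difference between those responses had an adjusted p of 0.0765 with edgeR and of 0.017 with DESeq2. Slc38a4 was at 108, 107, 105 and 109 CPM at 0h and 99.6, 79.3, 90.4 and 93.4 CPM at 2h, without overlap, and was 1.17-fold lower at 2h (log2 -0.22, SE 0.08, adjusted p = 0.0372). That call was lost without clone 4 replicate 2 (-0.24), clone 8 replicate 1 (-0.22) or clone 8 replicate 2 (-0.20) of 0h, or clone 4 replicate 2 (-0.17) or clone 8 replicate 1 (-0.23) of 2h. It was also lost with library size as the only scaling and without clone as a covariate.

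The other tested genes were not called in any time comparison over both clones. In the Snrpn region these were Snrpn, the gene of the splicing protein SmN, Ndn, of the MAGE family, and the ubiquitin ligase gene Mkrn3. Snrpn shares 27.3% of its exon bases with the gene model Gm38393 on the same strand, so its reads could be split. Within clone 4 it was called higher at 4h against 0h (log2 0.54, adjusted p = 0.0171), from 10.3 and 12.2 CPM to 16.6 and 16.9 CPM. Mkrn3 had the largest fitted fall among the uncalled genes, log2 -0.82 at 4h against 0h (SE 0.36, adjusted p = 0.0736), on 1 to 21 counts, and within clone 8 alone it was called (-1.56, adjusted p = 0.0493). In a fit that also took in each library's share of the top 8 models, Mkrn3 was called lower over both clones at 2h (log2 -0.90, adjusted p = 0.0436) and 4h (log2 -1.35, adjusted p = 0.0111). The rest were Impact, the splicing-related Zrsr1 and its host Commd1, Nnat and its host Blcap, the ubiquitin ligase gene Herc3, the phosphatase gene Inpp5f and Gnas, which encodes the stimulatory G protein alpha subunit. Impact ran from 49.5 to 68.3 CPM and Cd81 from 49.1 to 72.4 CPM over the 16 libraries.

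After the MEK inhibitor, Peg10 fell and Mest and Phlda2 were not called changed. In rev, 3 of the 28 genes were called higher than at 4h and 1 lower, against 16.4% of all tested genes called (7.93% higher and 8.43% lower). With library size as the only scaling, all genes split into 57 higher and 1671 lower, and the only imprinted gene called was lower. Peg10 was at 26.8 and 26.3 CPM in clone 4 and 19.4 and 12.2 CPM in clone 8 in rev. Both clone 4 libraries were far below their 4h libraries, and the groups as a whole overlapped. The change was log2 -1.24 against 4h (SE 0.19, adjusted p = 9.02e-06), or -1.20 without the clone 8 replicate 2 library of rev. Against 0h, Peg10 was still 1.97-fold higher in rev (log2 0.98, SE 0.23, adjusted p = 0.00239; 1.02 without that library). This call was lost with library size as the only scaling (log2 0.62, adjusted p = 0.104) and without clone as a covariate (log2 1.09, adjusted p = 0.0596). Of its log2 rise at 4h, a share of 0.504 was gone in rev within clone 4. Within clone 8 the share was 0.459, and 0.306 without the library that stands apart. For Mest the rev libraries were at 24.7, 25.8, 21.0 and 20.3 CPM, with log2 -0.22 against 4h (adjusted p = 0.108) and 0.97 against 0h (SE 0.11, adjusted p = 4.42e-08; 0.96 without the library that stands apart). With library size as the only scaling the latter was 0.66 and not called (adjusted p = 0.0718). Phlda2 was at 2.77, 3.69, 4.31 and 4.06 CPM in rev, with log2 0.06 against 4h (adjusted p = 0.919) and 1.59 against 0h (SE 0.30, adjusted p = 0.000238; 1.58 without the library that stands apart). Both were above every 0h library in every rev library. Among the markers of all 5 cell types, Col1a1 (log2 1.93, adjusted p = 0.00136), Cdx2 (1.66, adjusted p = 0.000867) and Esrrb (0.23) were also called higher in rev than at 0h and Tfap2c (-0.29) lower, with at most 15 counts of Col1a1 in a rev library. Their part in the rev results was not tested.

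The genes called higher in rev than at 4h were Peg3, Plagl1 and Kcnq1ot1. Peg3 was at 69.8, 66.9, 40.4 and 36.5 CPM in rev, above 4h (log2 0.42, SE 0.10, adjusted p = 0.002) and below 0h (log2 -0.33, SE 0.09, adjusted p = 0.00845), and both calls held without the library that stands apart (0.42 and -0.34). Both were lost without clone as a covariate (0.40 and -0.32). The call against 0h was also lost with library size as the only scaling (-0.62, adjusted p = 0.074). Plagl1 was at 136, 168, 148 and 133 CPM in rev, above each of its 4h libraries (log2 0.35, SE 0.10, adjusted p = 0.00982; 0.39 without the library that stands apart). That call was lost without clone 4 replicate 1 of 4h (0.31) or clone 4 replicate 2 of rev (0.27). It was also lost with each library's share of the top 8 models in the fit (0.35, adjusted p = 0.0508) and without clone as a covariate (0.35, adjusted p = 0.0662). Kcnq1ot1 was at 119, 108, 74.9 and 48.2 CPM in rev, with overlap (log2 0.31, SE 0.10, adjusted p = 0.0237; 0.36 without the library that stands apart). That call was lost without clone 4 replicate 2 (0.30) or clone 8 replicate 2 (0.26) of 4h and without clone 4 replicate 1 (0.29) or clone 8 replicate 1 (0.19) of rev. It was also lost without clone as a covariate (0.28, adjusted p = 0.68). With library size as the only scaling, which put the median of all genes at -0.41, Plagl1 and Kcnq1ot1 had values of -0.068 and -0.11, and Peg3 had 0.020 (adjusted p = 0.953), so none of the 3 was called. Usp29 was at 1.71, 1.95, 0.663 and 0.451 CPM in rev.

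Against 0h, 6 genes were called higher in rev and 3 lower, beside 22.3% of all genes called (12.4% higher and 9.86% lower). Without the library that stands apart these were 5 and 2, and with library size as the only scaling all genes split into 105 higher and 905 lower. The higher genes were Peg10, Mest, Phlda2, Plagl1 (log2 0.41, adjusted p = 0.00253), Kcnq1ot1 (log2 0.38, adjusted p = 0.00424) and Tssc4 (log2 0.45, SE 0.15, adjusted p = 0.0271). Without the library that stands apart Plagl1 had 0.44 and Kcnq1ot1 0.43, both called. With library size as the only scaling, Plagl1 (0.094), Kcnq1ot1 (0.067) and Tssc4 (0.16) were not called, and with DESeq2 Tssc4 was not called either (adjusted p = 0.0689). The call of Kcnq1ot1 was lost without clone 8 replicate 1 of rev (0.25) and without clone as a covariate (0.40, adjusted p = 0.452). Tssc4 was at 5.97, 7.16, 6.59 and 6.31 CPM at 0h, 8.29, 6.13, 7.18 and 7.31 CPM at 2h, 6.82, 7.83, 7.22 and 6.31 CPM at 4h and 9.49, 9.34, 8.29 and 9.01 CPM in rev. All its rev libraries were above all its 0h libraries, and the call was lost without clone 4 replicate 1 (0.41) or clone 8 replicate 2 (0.44) of 0h or clone 4 replicate 1 (0.43) or clone 8 replicate 2 (0.43) of rev. The lower genes were Peg3, Slc38a4 (log2 -0.29, SE 0.08, adjusted p = 0.00811) and Rian (log2 -0.32, SE 0.11, adjusted p = 0.0324). Slc38a4 was at 99.2, 93.8, 79.0 and 76.2 CPM in rev, below every 0h library. It had -0.26 without the library that stands apart, still called, and lost its call without clone 8 replicate 1 of rev (-0.24). With library size as the only scaling Slc38a4 was not called either (-0.61, adjusted p = 0.0791). Rian was at 32.2, 31.1, 20.5 and 13.1 CPM in rev, and lost its call without clone 8 replicate 1 (-0.25) or 2 (-0.29) of 0h or clone 8 replicate 1 (-0.33) or 2 (-0.25) of rev. Its call was also lost with library size as the only scaling, with each library's share of the top 8 models in the fit and without clone as a covariate. In rev Mirg was at 9.38, 7.82, 7.13 and 4.96 CPM, Rtl1 at 6.72, 5.43, 4.64 and 1.80 CPM and Meg3 at 28.7, 27.6, 18.9 and 13.5 CPM, and none of these genes was called against 4h or 0h.

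The clone comparison, with 8 libraries a side against 4 in the time comparisons, called more imprinted genes than any of these. In it 12 of the 28 genes were called lower in clone 8 and 1 higher, while 29.1% of all tested genes were called (13.7% lower and 15.4% higher). The median log2 fold change of clone 8 against clone 4 was -0.22 over the 28 genes and -0.01 over all tested genes. With library size as the only scaling, which put the median of all genes at -0.26, 12 were lower and none higher, and all genes split into 288 higher and 1837 lower. The genes lower in clone 8 came from both parental groups, 4 of the 8 tested genes of the maternal copy and 7 of the 16 of the paternal copy, with Herc3 of mixed allele use. Each clone is 1 line, so the test covers cultures of these clones and not other clones.

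Of the domains, Dlk1 and Meg3 had all 4 tested genes of the set lower in clone 8: Rtl1 by log2 -0.91 (SE 0.16, adjusted p = 5.22e-05), Meg3 by -0.77 (SE 0.09, adjusted p = 1.55e-08), Rian by -0.55 (adjusted p = 7.01e-07) and Mirg by -0.43 (adjusted p = 0.00725). Dio3, of that domain but outside the set, was higher in clone 8 (log2 1.03, adjusted p = 5.45e-10). Meg3 ran from 22.8 to 36.7 CPM (median 27.8) in clone 4 and from 13.2 to 22.0 CPM (median 16.1) in clone 8, without overlap. In the Peg3 domain, Peg3 was 1.96-fold lower in clone 8 (log2 -0.97, SE 0.07, adjusted p = 1.11e-13) and Usp29 2.21-fold lower (log2 -1.14, SE 0.26, adjusted p = 0.000876). Peg3 was at 52.2 to 96.7 CPM (median 68.4) in clone 4 and 23.2 to 43.8 CPM (median 38.7) in clone 8. Kcnq1ot1 was 1.90-fold lower (log2 -0.93, SE 0.07, adjusted p = 4.94e-13), at 87.1 to 131 CPM (median 102) in clone 4 and 44.5 to 74.9 CPM (median 50.4) in clone 8. Peg3 and Kcnq1ot1 did not overlap between the clones, and Igf2r did not either, at 108.6 to 126 CPM in clone 4 and 89.8 to 100.3 CPM in clone 8 (log2 -0.30, adjusted p = 5.55e-06).

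Smaller differences were called for Snrpn (log2 -0.54, adjusted p = 0.000233), Mest (-0.34, adjusted p = 0.000333) and Herc3 (-0.27, adjusted p = 0.00781). Gnas was the gene higher in clone 8 (log2 0.62, SE 0.13, adjusted p = 0.000278), with 4.13 to 6.25 CPM in clone 4 and 5.58 to 11.7 CPM in clone 8. Nespas, antisense to Gnas, shares 8.8% of the exon bases of Gnas. Peg10 was called lower in clone 8 over all groups together (log2 -0.78, adjusted p = 8.53e-05), and its value was 0.28 in the 0h libraries alone. The 13 clone calls held without each library, and 3 of them, those of Peg3, Meg3 and Kcnq1ot1, were called in the 0h libraries alone. Usp29 was not tested there. Across the same libraries some marker genes differed too. In clone 8, T (log2 -1.75) and Cdx2 (-2.60) were lower and Krt8 (2.11) was higher. Of the 7 embryonic stem cell markers, 4 were higher in clone 8 (Klf4 0.79, Nanog 0.66, Tfcp2l1 0.34 and Esrrb 0.31) and 2 lower (Zfp42 -0.30 and Sox2 -0.18). Their part in the clone differences was not tested.

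**Figure D5:**
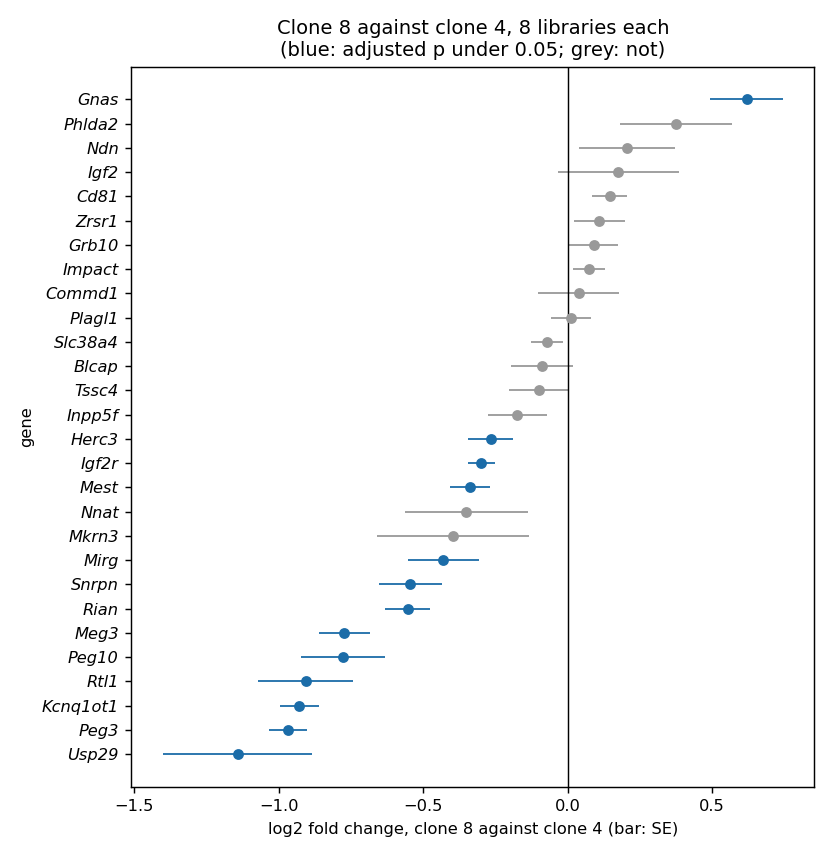
Log2 fold change of clone 8 against clone 4 for the 28 tested imprinted genes, with bars of 1 SE; blue points have an adjusted p under 0.05 in edgeR and grey points do not. Of the blue points 12 lie below 0, down to -1.14 for Usp29, and Gnas lies above at 0.62.

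Among the 28 tested genes, Peg10 was the 1 called with edgeR for a difference between the clones in its response to induction. At 0h it was not called between the clones (log2 0.29 for clone 8 against clone 4, SE 0.21, adjusted p = 0.472), and at 2h the value was -0.37 (adjusted p = 0.148). At 4h it was 3.19-fold lower in clone 8 (log2 -1.67, SE 0.14, adjusted p = 1.25e-10), and in rev 1.55-fold lower (log2 -0.63, SE 0.17, adjusted p = 0.0166), where 11.8% and 8.07% of all genes were called between the clones. Without the rev library that stands apart, the rev value was -0.46 and not called (adjusted p = 0.171), with the lone clone 8 library of rev assumed to vary like the other groups. Within clone 4 Peg10 rose 8.61-fold from 0h to 4h (log2 3.11, SE 0.16, adjusted p = 5.51e-17), and within clone 8 it rose 2.21-fold (log2 1.14, SE 0.18, adjusted p = 9.31e-06), beside 21.7% and 21.2% of all genes called within them. The difference between those responses was -1.96 (SE 0.25, adjusted p = 4.04e-05), which had the smallest p of all 12215 genes in that test, in which 0.311% of genes were called. It ranged from -2.60 to -1.68 over the alternatives and over leaving out each library, and was called in each. The same gene fell in rev by 1.57 on the log2 scale within clone 4 (adjusted p = 1.85e-11), while clone 8 had -0.52 (adjusted p = 0.0903; -0.35 without that library, adjusted p = 0.358), beside 10.2% and 5.21% of all genes called. The difference in that fall was 1.04 (SE 0.23, adjusted p = 0.219), and 1.22 without the library of rev that stands apart (adjusted p = 0.0631).

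Other values differed between the clones at 4h as well. The 4h rise of Egr1 was lower in clone 8 by 1.03 on the log2 scale (difference -1.03, adjusted p = 0.00999), and the differences for Spry4 and Dusp6 were -1.43 (adjusted p = 0.302) and -1.25 (adjusted p = 0.312). The 4h libraries of clone 4 had 42.0% and 51.7% of their counts in the 8 most abundant models and those of clone 8 60.4% and 62.4%. With that percentage as a covariate, the Peg10 difference was still called, as the 1 gene of all tested. The part of ERK response strength in the Peg10 difference was not tested. For Mest the difference in the 4h response was -0.34 (SE 0.21, adjusted p = 0.549), for Phlda2 -0.89 (SE 0.67, adjusted p = 0.648) and for Peg3 0.06 (SE 0.17, adjusted p = 0.939). Snrpn had -1.003 (SE 0.26, adjusted p = 0.0852), with 16.6 and 16.9 CPM in clone 4 and 7.41 and 8.16 CPM in clone 8 at 4h, and Cd81 had 0.49 (adjusted p = 0.132). No imprinted gene was called in the corresponding tests for 2h against 0h (0.0901% of all genes called) and rev against 4h (0.00819%). At an unadjusted p under 0.05 there were 3 and 3, and DESeq2 called 1 (Plagl1) and 0.

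Factors that protect imprints or act on DNA methylation were examined as a list of 16, all tested. At 4h against 0h, 7 were called higher and 1 lower, with a median of 0.16 against -0.02 over all tested genes, of which 17.2% were higher and 16.8% lower. Dnmt3l, a cofactor of the de novo methyltransferases, went from 4.60 ± 3.67 CPM at 0h to 15.0 ± 6.401 CPM at 4h (log2 1.72, adjusted p = 3.65e-09) and was lower in rev than at 4h (log2 -0.74, adjusted p = 0.00229). Zfp57 went from 157 ± 27.9 CPM to 229 ± 20.2 CPM at 2h (log2 0.55, adjusted p = 3.83e-06) and was lower in rev than at 4h (log2 -0.45, adjusted p = 0.000148). Dppa3, which protects maternal methylation in the zygote, was the factor called lower at 4h (log2 -0.54, adjusted p = 8.55e-05). At 2h against 0h, 4 of the 16 were higher and 0 lower, beside 11.4% and 9.68% of all tested genes, after Zfp57 led by Arid4a (log2 0.45) and Arid4b (log2 0.39). In clone 8, 4 were higher and 3 lower, beside 15.4% and 13.7% of all tested genes, with Dnmt3l and Uhrf1 (log2 0.41) higher and Dnmt3a at -0.33 lower.

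Of 33 further imprinted genes outside the set, 20 were tested. At 4h against 0h, 4 were higher and 4 lower, or 40.0% of the 20 beside 33.9% of all tested genes, and their median was -0.17. Those with the largest changes were Zfp264 (log2 -0.89, adjusted p = 5.02e-05), in the Peg3 domain, the deiodinase gene Dio3 (log2 -0.58, adjusted p = 0.00298), in the Dlk1 and Meg3 domain, and Mcts2 (log2 0.57, adjusted p = 0.00818). Dio3 was the gene of this list called from 2h to 4h (log2 -0.70) and the one with the largest change from 4h to rev (log2 1.05, adjusted p = 2.52e-06). It was higher in clone 8 (log2 1.03, adjusted p = 5.45e-10), which the 4 tested genes of its domain above were not. Between the clones 5 of the 20 were higher in clone 8 and 2 lower, or 35.0% beside 29.1% of all tested genes. Snhg14, the long transcript that runs on from Snrpn, was the gene of this list with a called difference in the 4h response (-1.25, adjusted p = 0.0424).

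The 11 genes that did not pass the filter were given by counts. Their highest counts in any library were 14 for Cdkn1c, 11 for Sgce, 11 for Dlk1, 9 for Nap1l5, 8 for Ascl2, 7 for Slc22a18, 6 for Magel2, 4 for Airn, 3 for Zim1, 2 for H19 and 1 for Kcnq1. H19, the noncoding RNA next to Igf2, had 10 counts over all 16 libraries, and Airn, the antisense RNA that silences Igf2r in cis, had 14. Slc22a18 had 0 counts in all 4 libraries of 4h, and 14, 18 and 10 counts summed over 0h, 2h and rev. Relative to a floor of 3 counts over the 4h group, its level was 4.80-fold higher at 0h, 4.46-fold at 2h and 4.00-fold in rev. These folds leave out the counting error in the 14, 18 and 10 counts and are not lower bounds. Slc22a18 was called lower at 4h when no filter on low counts was used (adjusted p = 0.000365). Without that filter Ascl2 was also called lower at 2h and 4h (adjusted p = 0.0139 and 0.0491) and Dlk1 higher at 4h (adjusted p = 0.0211). These rest on few counts, 24, 9 and 9 for Ascl2 and 7, 24 and 24 for Dlk1, summed over the 4 libraries of 0h, 2h and 4h.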

How the data were processed

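The 16 libraries were made from total RNA after removal of ribosomal RNA. Per the submitters' processing notes, bcl2fastq 2.19.1, STAR 2.5.3a and the mm10 build were used; the counting tool, the annotation and the strand setting are not given in the sources used here. The authors deposited raw counts per gene, whole numbers without normalization. Of 52636 identifiers, 52489 matched GENCODE M21 for symbols, positions and exon lengths, and 147 did not. No replicate pair held identical values.

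The tests were run in edgeR 4.0.16 (R 4.3.3, limma 3.58.1). Genes passed filterByExpr over the 4 groups (12215 did), were scaled with TMM factors and fitted with group and clone over all 16 libraries. Quasi-likelihood contrasts were two-sided, with Benjamini-Hochberg adjustment over all tested genes at 0.05. Changes within a clone, clone differences in a group and differences in response came from a fit with 1 mean for each of the 8 combinations of group and clone. The SE is the size of the log2 change divided by the square root of F. Mean levels carry the SD over 4 libraries. The pipeline was tested on simulated data.

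The genes and lists were chosen with earlier results of these data known, so the calls are no independent support for the choice. All 39 genes are named; every library's value is given for Peg10 and for the called genes with the largest changes in each comparison (up to 6), and up to 3 called genes a comparison are named of each other list. Slc38a4, Snrpn, Mkrn3 and Gnas are described further, a choice made after their values were seen. Alternatives were RLE factors, library size alone, no filter, a mean of at least 1 CPM, DESeq2 1.42.0, the 8 most abundant models removed or their percentage as a covariate, no clone covariate, a replicate block, the compared groups alone, the 0h libraries alone and leaving out each library. Floors cover counting error only, since the counts carry no molecular identifiers.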

Additional observations from a re-analysis of the deposited data

Results flagged for a closer look

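The difference in the 4h response of Peg10 between the clones, -1.96 on the log2 scale (clone 8 minus clone 4), was picked out because the test of that difference passed the threshold. Single libraries also stood apart from the other 3 of their group in 6 of the 112 groups of tested imprinted genes examined. Chance flags about 1 group in 20 where all 4 values come from 1 normal distribution. These groups mix 2 clones, so that rate may not hold for them. Usp29 was at 3.28 CPM in clone 4 replicate 2 of 0h, against 1.13 to 1.36 CPM in the others. Phlda2 was at 1.81 CPM in clone 4 replicate 1 of 2h, against 2.56 to 2.70 CPM. Ndn was at 2.44 CPM in clone 4 replicate 1 of 0h, against 3.70 to 3.85 CPM, and at 4.40 CPM in clone 8 replicate 2 of 2h, against 3.07 to 3.13 CPM. Inpp5f was at 7.69 CPM in clone 8 replicate 1 of 2h, against 9.32 to 9.66 CPM, and at 6.76 CPM in clone 8 replicate 2 of rev, against 8.85 to 8.95 CPM. The last of these is the library with the largest share of counts in the 8 most abundant models.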

How the results depend on the processing

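Of 47 calls of an imprinted gene in a comparison, 12 held under every alternative run for them and without each library (the clone call of Usp29 could not be tested in the 0h libraries alone), and 3 changed sign under some setting. The same tally was not made for all tested genes. With library size alone, 1 gene was called at 2h against 0h in place of 10, 3 at 4h against 0h in place of 5, 1 from 2h to 4h in place of 5, 1 in rev against 4h in place of 4 and 1 in rev against 0h in place of 9. Under it rev against 4h was -0.068 for Plagl1 and -0.11 for Kcnq1ot1. Without clone as a covariate the counts were 2, 3, 2, 1 and 5, and the clones differed in 13 of these genes. In the 0h libraries alone 3 genes were called between clones in place of 13, and Peg10 had 0.28. Calls among all genes moved with the settings too. Over all settings they ranged from 641 to 3754 between the clones (3555 in the analysis above). The ranges were 338 to 2657 at 2h against 0h (2572 above) and 881 to 4216 at 4h against 0h (4146 above). They were 100 to 1030 from 2h to 4h (894 above), 881 to 2209 in rev against 4h (1999 above) and 1010 to 2814 in rev against 0h (2722 above). Without a filter on low counts 8 genes were called at 4h against 0h, and 1 in the difference in response at 2h against 0h and 1 (Peg10) for rev against 4h, each in place of 0; DESeq2 called 1 (Plagl1) in the difference in response at 2h against 0h. Without the filter 5 calls were lost, those of Peg3 (-0.24), Meg3 (-0.31) and Slc38a4 (-0.19) at 2h against 0h, Mest from 2h to 4h (0.31) and Tssc4 in rev against 0h (0.44). Dropping the filter added genes to the test, and the 0h comparison has 4 libraries. The cause of the changed calls was not tested for any setting. Leaving out each library gave 6 to 10, 4 to 6, 3 to 7, 3 to 4 and 6 to 9 called genes in the time comparisons, 13 to 14 between clones, and 0 to 1, 1 to 1 and 0 to 0 in the differences in response. The counts fell to 6 at 2h without clone 4 replicate 2 or clone 8 replicate 2 of 0h or clone 8 replicate 1 of 2h, and to 3 from 2h to 4h without clone 4 replicate 1 of 2h or clone 4 replicate 2 of 4h. Deviations of same-numbered libraries of a clone had r from -0.318 to 0.210 over 12 pairs. They were above 0.1 in clone 8 between 0h, 2h and 4h (0.210, 0.130 and 0.178) and in clone 4 between 0h and 2h (0.103). This did not hold in all pairs, so the replicate numbers were not taken to pair the libraries. With those numbers as a replicate block the counts were 10, 5, 6, 4 and 9. Usp29, Phlda2 and Mkrn3 rest on few counts, at most 22, 36 and 21 in a library.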
